A study of Mus musculus with 14 samples.

Results

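The genes described are the nuclear genes of the respiratory chain and ATP synthase, ordered by complex, measured in adult mouse testis while its chromatoid bodies were purified. They were chosen by symbol from the joint expression table, by the name series of NADH dehydrogenase (Nduf), succinate dehydrogenase (Sdh), cytochrome bc1 (Uqcr), cytochrome c oxidase (Cox4 to Cox8) and ATP synthase (Atp5). The testis isoforms Cox8c, Cox6b2 and Cox7b2 were set apart. The choice gave 87 of 21905 genes with a symbol: 42 under complex I, 4 under complex II, 8 under complex III, 16 under complex IV and 17 under complex V. Of the 87, 78 encode structural subunits. The other 9 are carried by their names: the complex I assembly factors Ndufaf1, Ndufaf2, Ndufaf3 and Ndufaf4, the paralog Ndufa4l2, the supercomplex factor Cox7a2l, Cox4nb (a subunit of the membrane protein complex of the endoplasmic reticulum), and Atp5s and Atp5sl.

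RNA was sequenced from testes of C57BL/6 mice at least 6 weeks old, in 14 libraries of 9 groups. Cells dissociated from seminiferous tubules were crosslinked with formaldehyde and sonicated (lysate, 1 library), and centrifugation split them into a supernatant (1 library) and a first pellet, pellet1 (1 library). Pellet1 was sonicated again and passed through a filter to give pellet2 (1 library), and pellet2 was immunoprecipitated with an antibody against MVH, the germ cell helicase that marks chromatoid bodies (MVH IP, 3 libraries), although another label field describes the IP as made from lysate. Round spermatids were sorted from adult testes (2 libraries, 1 of them from RNA above 500 bp), and 1 further library of sorted round spermatids is labelled hetMIWI, a name that the labels give without an allele (MIWI is a Piwi protein of spermatids). The 3 ACR IP libraries and 1 IgG IP library were not analysed here, so no antibody control stands beside the MVH IP. Each condition has 1 deposited value per gene, in FPKM (fragments scaled to transcript length and to library size), and those of MVH IP and round spermatids stand for their pooled libraries. There is accordingly no SD, n or p-value of the differences given here beyond the q-values of the authors' deposited table, and sequencing depth is unknown. Those q-values can hold no spread between libraries for lysate, supernatant, pellet1 and pellet2, which have 1 library each. Where 5 levels of a gene stand in a row, they follow the order of the purification: lysate, supernatant, pellet1, pellet2, MVH IP.

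The respiratory chain sits in the inner mitochondrial membrane. Complex I oxidises NADH and complex II oxidises succinate, both pass electrons through ubiquinone to complex III, and cytochrome c carries them on to complex IV, where oxygen is reduced. The proton gradient built on the way drives complex V, whose F1 head makes ATP and whose Fo part conducts protons. Most subunits are encoded in the nucleus, and in germ cells some are replaced by testis isoforms. In round spermatids mitochondria lie close to the chromatoid body before they wrap around the sperm midpiece.

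The labelled material was checked with marker genes. All 9 round spermatid markers were at 1 FPKM or more in each of the 5 conditions of the joint table, with summed levels of 40221, 39806, 25694, 29705 and 33890 FPKM. A few genes such as Prm1 and Tnp1 weigh heavily in these sums, and the median marker was at 223, 196, 314, 224 and 564 FPKM. Of 8 Sertoli cell markers 7 were in the table, and their summed levels were 52.3, 57.6, 18.2, 24.2 and 271 FPKM, with Amh listed at 0 in lysate, both pellets and MVH IP. The largest Sertoli values in MVH IP were Ctsl at 127 FPKM and Clu at 101. The summed level of 6 Leydig cell markers was 284, 252, 134, 162 and 213 FPKM, that of 6 spermatocyte markers 415, 436, 230, 309 and 352, that of 6 spermatogonia markers 15.7, 16.4, 8.11, 10.3 and 70.4, and that of 7 peritubular, vascular and blood markers 70.4, 67.4, 49.7, 46.2 and 27.97. In bulk samples, fewer cells of a type and less RNA per cell cannot be told apart.

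In lysate, 86 of the 87 genes were at 1 FPKM or more and 14 were at 100 or more. FPKM is a level per transcript length, but several of the leading transcripts are about as short as the library fragments (Atp5k 371 bases, Cox6c 503, Uqcrh 547), so the order between genes is uncertain. It was led by Atp5k, the e subunit of the ATP synthase membrane part, at 274 FPKM, followed by Uqcrh, the hinge protein of complex III, at 214, Atp5b, the catalytic beta subunit of F1, at 207, Cox6c at 196, Ndufb10 at 173 and Uqcrq at 169. The 10 highest genes held 38.9% of the summed level. The median level was 32.9, 29.9, 29.1, 23.4 and 57.4 FPKM. By complex, the median in lysate was 32.8 FPKM for complex I, 35.7 for complex II, 39.5 for complex III, 21.9 for complex IV and 39.7 for complex V. Levels over the 87 genes kept much of their order between conditions, with rank correlations to lysate of 0.97 (supernatant), 0.88 (pellet1), 0.89 (pellet2) and 0.83 (MVH IP) over n = 87 genes, a description only, since all genes share their libraries.

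**Figure D1:**
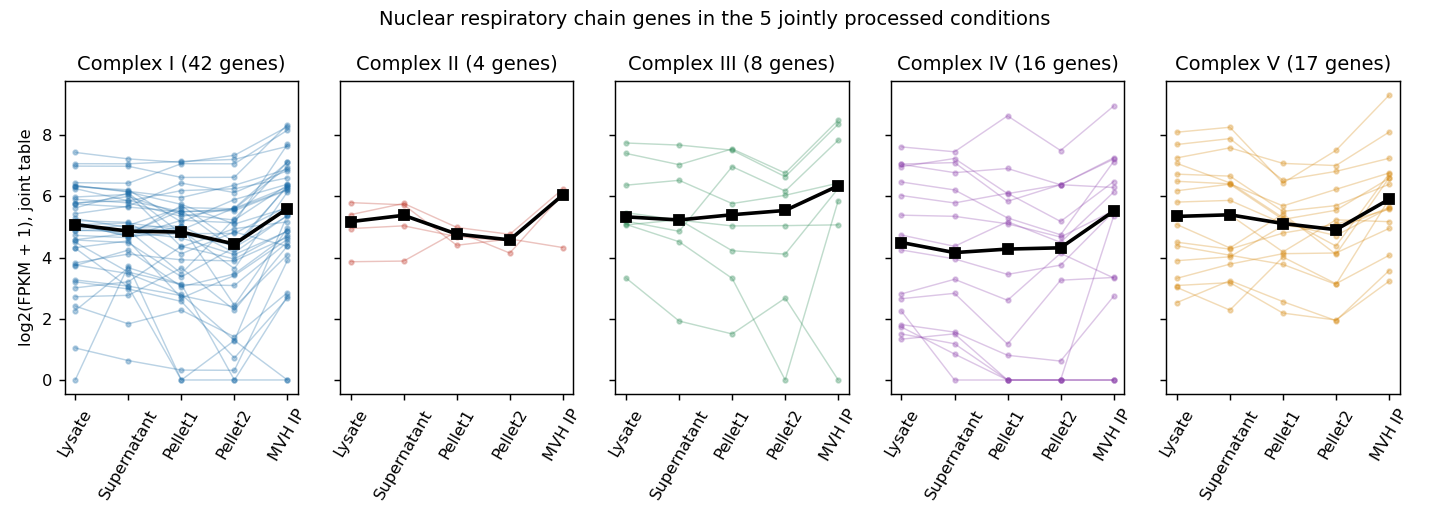
Level of each gene in the 5 conditions of the joint table, as log2(FPKM + 1), in 1 panel per complex; each thin line is a gene and the black line is the median of the panel. The median line is lowest in pellet2 for complexes I, II and V and highest in MVH IP for all 5 complexes.

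The flavin and iron-sulfur clusters of complex I lie in its core subunits, though not in each of them. In lysate Ndufs7 was at 3.83 FPKM, Ndufs8 at 5.60, Ndufs3 at 30.1, Ndufv1 at 36.0, Ndufs1 at 54.5 and Ndufv2 at 59.1. Subunits of 1 complex were thus not at 1 level. In complex II, Sdha, the flavoprotein, was at 54.7 FPKM, Sdhb, the iron-sulfur subunit, at 41.4, and the membrane anchors Sdhc and Sdhd at 29.9 and 13.6. Among the 3 genes of complex III described as its core, Uqcrc1 was at 81.7 FPKM, Uqcrc2 at 43.4 and Uqcrfs1, the Rieske iron-sulfur protein, at 35.6. Cyc1, the cytochrome c1 subunit of complex III, falls outside the name series and is not among the 87 genes. In F1, Atp5b at 207 FPKM, Atp5e at 134, Atp5a1 at 71.9 and Atp5c1 at 55.4 stood well above Atp5d at 7.51.

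Several subunits of complex IV have isoforms. The ubiquitous Cox4i1 was at 64.4, 54.3, 67.9, 35.3 and 88.6 FPKM. The lung isoform Cox4i2 was at 2.32 and 0.802 FPKM in lysate and supernatant and was listed at 0 in the other 3 conditions. The heart and muscle isoforms were low as well: Cox7a1 was at 1.84 FPKM in lysate and Cox8b at 3.75, both listed at 0 in pellet1, pellet2 and MVH IP, and Cox6a2 ranged from 5.09 to 16.7 FPKM at a locus it shares with Itgad. Their ubiquitous counterparts differed among themselves, with Cox7a2 at 132 FPKM in lysate, Cox6a1 at 25.7, Cox6b1 at 18, Cox8a at 5.31 and Cox7b at 1.52. The testis isoforms set apart stood at 260 FPKM (Cox8c), 97.1 (Cox6b2) and 176 (Cox7b2) in lysate, each above its ubiquitous counterpart there. Of the 3 genes that encode the identical c subunit of the Fo ring, Atp5g3 was at 89.2 FPKM in lysate, Atp5g1 at 7.15 and Atp5g2 at 4.78. In the pair Ndufa4 and Ndufa4l2, Ndufa4, named for complex I and now placed with complex IV, was at 12.6, 10.1, 5.94, 1.45 and 0 FPKM, and Ndufa4l2 was at 13.2, 16.4, 14.2, 13.9 and 24.5. The first was thus listed at 0 in the IP where its paralog was highest.

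Many genes of this set are known targets of the nuclear respiratory factors NRF-1 and NRF-2 (GABP), and the short sequences below show the NRF-1 core before 6 of the genes that hold it, picked to cover 4 of the complexes. RefSeq promoter windows (GRCm38.p6) were found for 72 of the 87 genes. The NRF-1 core, GCGCA and GCGC with any base (N) between them, searched on both strands, was in the 250 bases before the start of 14 of those 72 genes (19.4%), in 3.74% of all 32851 windows and in 8.03% of 12266 genes at 1 FPKM or more. The GABP core CCGGAAG, with its reverse complement CTTCCGG, was in 13 of the 72 (18.1%), against 6.91% of all windows and 13.4% of those genes. By complex the NRF-1 core was found before 7 of 37 genes of complex I, 2 of 3 of complex II, 0 of 5 of complex III, 1 of 11 of complex IV and 4 of 16 of complex V. Each sequence is 30 bases, 5′ to 3′ on the strand of the gene, with the match nearest the start in capitals.
Ndufaf4 (chr4:24897960-24897989, plus strand): ccagatgtctGCGCATGCGCctgtgcggaa
Sdha (chr13:74350231-74350260, minus strand): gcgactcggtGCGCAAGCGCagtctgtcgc
Sdhd (chr9:50603909-50603938, minus strand): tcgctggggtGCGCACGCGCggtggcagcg
Cox6a1 (chr5:115349056-115349085, minus strand): cggataaagtGCGCAGGCGCtggagttcct
Atp5c1 (chr2:10080430-10080459, minus strand): ctgagctcccGCGCACGCGCactgagtccc
Atp5k (chr5:108434430-108434459, minus strand): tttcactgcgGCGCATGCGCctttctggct
The free base varies among them, and Sdha has 3 matches in its window, Cox6a1 2 and the others 1. A match is a description of the letters and not evidence of binding.

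The supernatant was compared with lysate to see what stayed soluble. A ratio is the log2 of (FPKM + 1) over (FPKM + 1), taken where the 2 conditions average 1 FPKM or more, and a gene counts as higher or lower from a 2-fold difference on. The comparisons below that use lysate share its 1 value. Of 86 genes past the filter 2 were higher and 3 lower, against 0.751% higher and 1.46% lower of all 12777 genes tested, and their median log2 ratio was -0.07 against -0.01. In the authors' deposited table, from Cuffdiff, 0 of 82 members with a test had q under 0.05, against 0% higher and 0.00947% lower of all genes with a test. Ndufs7, a core subunit, was higher at 11.7 FPKM against 3.83 in lysate. Uqcr11 was lower at 2.80 FPKM against 9.07, as was Ndufa1 at 7.22 against 18.8, while Cox8b was listed at 0 against 3.75. The other higher gene, Ndufs5, was at 0.00518 FPKM in lysate and 12.4 in supernatant. It shares a locus in the joint table with BC002163, which was at 70.4 and 54.4 FPKM, and the separate gene tables list Ndufs5 at 19.2 FPKM in lysate and 45.6 in MVH IP, so the joint values of Ndufs5 are uncertain.

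Many respiratory chain genes had lower FPKM in the insoluble pellets than in lysate, a level relative to each library and not an amount. In pellet1, of 83 genes past the filter 5 were higher and 22 lower (26.5%), against 16.8% higher and 9.41% lower of all 12904 genes tested, and the median log2 ratio was -0.37 against 0.07. In pellet2, of 83 again, 2 were higher and 24 lower (28.9%), against 12.5% and 7.21% of all 12941 genes, and the median was -0.59 against 0.08. Relative to the median of all genes, called centred from here on, pellet1 had 3 higher and 24 lower, against 15.2% and 11.2% of all genes, and pellet2 had 1 higher and 26 lower, against 10.8% and 8.51%. Without genes listed at 0 in either condition the lower ones were 19 in pellet1 and 20 in pellet2, with no all-gene share given for this setting. The authors' deposited table, from Cuffdiff, calls 0 of 81 members in pellet1, against 2.16% higher and 0.0999% lower of all genes, and 0 of 81 in pellet2, against 0.965% and 0.0302%. All 6 summed marker levels given above, round spermatid markers included, were also lower in both pellets than in lysate (the median round spermatid marker was not, at 314 and 224 FPKM against 223), and their part in the result was not tested.

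By complex, the median log2 ratio of pellet1 to lysate was -0.29 for complex I, -0.34 for complex II, -0.52 for complex III, -0.84 for complex IV and -0.70 for complex V. In pellet2 it was -0.37, -0.52, -0.65, -0.67 and -0.59 in the same order. All 5 complexes thus lay below the median of all genes in both pellets, as the plot of ratios by complex shows. Of the 9 genes that are not subunits 8 passed the filter, with medians of 0.36 in pellet1 and 0.38 in pellet2, but not all lay above lysate. Cox4nb was lower in both pellets, with log2 ratios of -1.003 and -1.19, and Cox7a2l stood at -0.28 and -0.72.

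**Figure D2:**
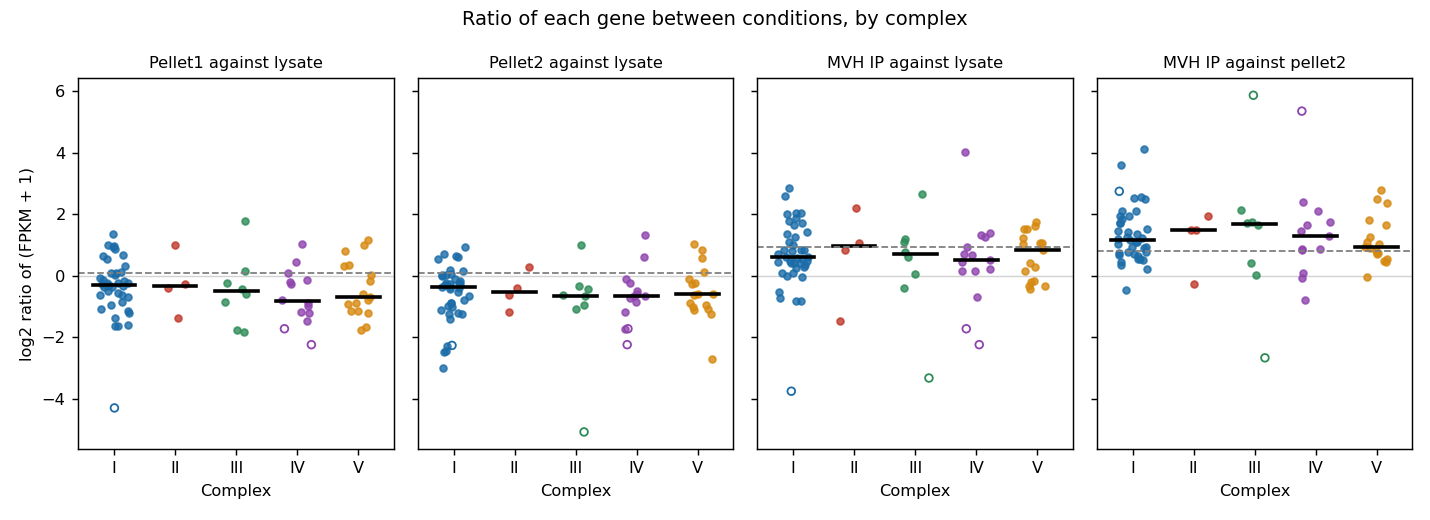
Log2 ratio of (FPKM + 1) for each gene, by complex, in 4 comparisons of the joint table; open circles are genes listed at 0 in 1 of the conditions, black bars are medians by complex and the dashed line is the median of all genes tested. The bars lie below the dashed line in both pellet panels, and above it in the panel of MVH IP against pellet2.

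In complex I, 8 genes were lower and 2 higher in pellet1, and 12 were lower and 0 higher in pellet2, of 40 past the filter. Of all genes, 9.41% were lower and 16.8% higher in pellet1, and 7.21% and 12.5% in pellet2. Ndufv1, which binds NADH and flavin, was at 36.0, 34.6, 16.5, 27.6 and 19.7 FPKM, lower by 2-fold or more in pellet1 and by less in pellet2. The small accessory subunit Ndufa1 was at 18.8, 7.22, 0, 1.45 and 41.2 FPKM, so it was low in the pellets and highest in MVH IP. Ndufs3 went the other way, at 30.1, 32.2, 48.7, 47.4 and 124 FPKM, within 2-fold of lysate in the pellets. The accessory subunit Ndufv3 was lower in pellet2 than in pellet1, with 25.5, 24.2, 31.8, 4.43 and 30.3 FPKM, as was Ndufb11 with 8.26, 6.87, 4.93, 0.648 and 5.39, at a locus shared with Rbm10. Ndufs7 was listed at 0 in pellet2.

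The assembly factors of complex I help to build it and are not part of the finished enzyme. Ndufaf1 was at 7.07, 8.27, 19.7, 14.5 and 28.4 FPKM. Ndufaf2, which replaces an accessory subunit during assembly, was at 86.5, 85.4, 134, 133 and 286 FPKM, and Ndufaf3 at 134, 133, 141, 147 and 198. None of these 3 was below lysate in a pellet. Ndufaf4 (chr4:24825230-24832148, mm9) was at 1.07, 0.553, 0.252 and 0.246 FPKM before the IP and at 14.03 in MVH IP.

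In complex II, Sdha (chr13:74459703-74487688, mm9) was the 1 gene of 4 called in the pellets, at 54.7, 52.0, 20.2, 23.4 and 19.1 FPKM. Sdhd was at 13.6, 13.8, 27.9, 16.8 and 66.5 FPKM. In the joint table the flavoprotein was thus lowest in MVH IP and the anchor highest there, but in the separate tables Sdha was at 122 FPKM in MVH IP against 22.6 for lysate, the opposite direction.

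In complex III, Uqcrfs1 (chr13:30632181-30637185, mm9) was at 35.6, 28.1, 125, 71.4 and 228 FPKM. It was 3.44-fold higher in pellet1 than in lysate and 1.98-fold higher in pellet2. It is the 1 member that the authors' deposited table calls between pellet1 and supernatant (q = 0.0211), against 2.96% higher and 0.111% lower of all genes with a test there. The other 2 core genes went the other way in the pellets but within 2-fold, Uqcrc1 at 53.5 and 64.7 FPKM against 81.7 and Uqcrc2 at 31.9 and 32.1 against 43.4. Of the small accessory subunits, Uqcr10 was at 33.0, 22, 9.01, 0 and 57.4 FPKM. Uqcrh was at 214, 204, 182, 99.2 and 329 FPKM, and Uqcr11 at 9.07, 2.80, 1.84, 5.39 and 0.

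In complex IV, 6 of 14 genes past the filter were lower in pellet1 and 1 was higher, against 9.41% and 16.8% of all genes. Cox6c was the higher one, at 196, 175, 397, 180 and 495 FPKM. Cox7c was at 87.8, 73.3, 38.4, 25.9 and 140 FPKM, lower in both pellets. Cox5b was at 132, 137, 56.4, 82.6 and 148 FPKM, lower in pellet1 alone, and Cox5a at 125, 150, 67.2, 82.6 and 77.4, with no call in the pellets. Cox7b was at 1.52 and 1.85 FPKM in lysate and supernatant, was listed at 0 in both pellets, and was at 39.8 in MVH IP.

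In complex V the F1 genes were low in the pellets as a group. Of 5 F1 genes 2 were lower in pellet1 and 3 in pellet2, and all 5 ratios were negative in both, with medians of -0.94 and -1.09. Of all genes, 9.41% were lower in pellet1 and 7.21% in pellet2. Atp5b was at 207, 236, 91.5, 112 and 151 FPKM. Atp5e, the epsilon subunit, was at 134, 86.1, 38.6, 19.8 and 106 FPKM, and Atp5a1, the alpha subunit, at 71.9, 83.6, 37.0, 45.8 and 95.5. Among the 10 genes of Fo and the stalks 3 were lower in pellet1 and 2 in pellet2, with medians of -0.39 and -0.43. Atp5o, the stalk subunit that holds F1, was at 105, 101, 44.7, 51.0 and 83.1 FPKM. Atp5g1, at 15.2 FPKM in pellet1 against 7.15 in lysate, had the highest ratio among them, 0.99 on the log2 scale.

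**Figure D3:**
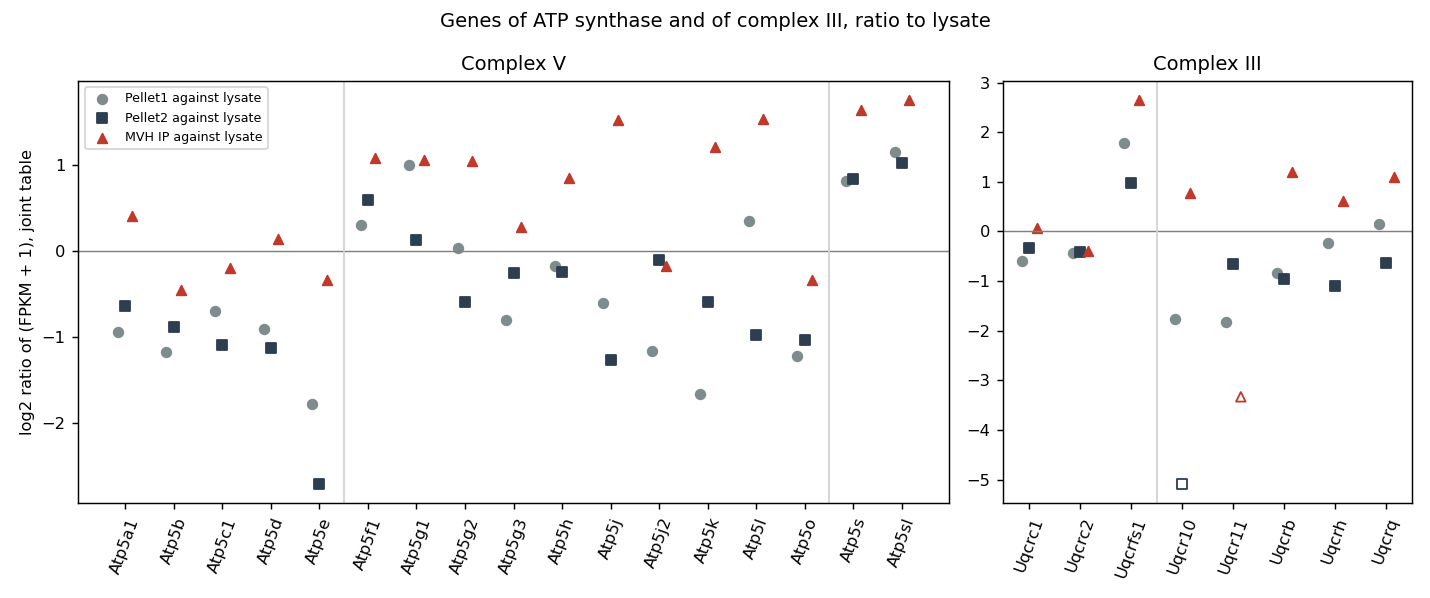
Log2 ratio to lysate of (FPKM + 1) for each gene of complex V (F1, then Fo and stalks, then the 2 genes that are not subunits) and complex III (core, then accessory), with circles for pellet1, squares for pellet2 and triangles for MVH IP; open symbols are values listed at 0. The F1 genes lie below 0 in both pellets and between -0.45 and 0.41 in MVH IP, while Uqcrfs1 lies above 0 in all 3.

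Transcript length was also set beside these ratios, in libraries that were cut from a gel at 350 to 500 bp. The median length over annotated coding transcripts was 838 bases, from 315 for Ndufc1 to 4942 for Cox4nb, and 53 of 87 (60.9%) were under 1000 bases, against 10.01% of genes at large, whose median was 2649. Of the 51 shorter members past the filter 17 were lower in pellet1, and of the 32 longer ones 5. Among all genes 209 of 1126 shorter and 908 of 11009 longer ones were lower, so shorter genes were called lower more often there too. Shorter genes at large were also called higher more often, 211 of 1126 against 1710 of 11009 longer ones. In pellet1 the rank correlation of ratio with length was 0.05 over all genes and 0.23 over members. In pellet2 it was 0.09 and 0.24. All genes under 1000 bases had a median log2 ratio of -0.05 in pellet1 against 0.07 for longer genes, and -0.09 against 0.08 in pellet2, while the shorter members stood at -0.62 and -0.66 and the longer members at -0.27 and -0.38. The longer members thus also lay below the median of long genes, and the part of length in the result was not tested.

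The MVH IP was compared with lysate to see what the purified material holds relative to the starting cells. Levels of all genes were shifted up, with a median log2 ratio of 0.92 over 13855 genes, and the respiratory chain genes were shifted less, with 0.62 over 85 past the filter. Of these 30 were higher and 5 lower, against 47.3% higher and 7.53% lower of all genes, and without genes listed at 0 the lower ones were 1. Centred, 8 were higher (9.41% against 18.7% of all genes) and 16 lower (18.8% against 20.6%). The authors' deposited table calls 1 of 81 members with a test, Uqcrfs1, against 7.05% higher and 0.115% lower of all genes. The summed Sertoli markers were 271 FPKM in MVH IP against 52.3 in lysate and the summed spermatogonia markers 70.4 against 15.7. The round spermatid markers had a lower sum, 33890 against 40221 FPKM, but a higher median, 564 against 223. The part of these cell types in the result was not tested.

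Uqcrfs1 was 6.25-fold higher in MVH IP than in lysate, at 228 FPKM against 35.6, with q = 0.00538 in the authors' deposited table. Against supernatant the authors' deposited table calls 3 of 81 members, Uqcrfs1 (q = 0.000629), Ndufaf4 (q = 0.0305) and Ndufb6 (q = 0.0488), against 9.16% higher and 0.117% lower of all genes. Ndufb6, an accessory subunit of the membrane arm of complex I, was at 33.9, 24.7, 36.4, 34.2 and 207 FPKM, so it was level until the IP. Ndufc1, the shortest transcript of the set, was at 32.9, 28.7, 10.1, 37.7 and 139 FPKM, and Ndufa3 at 32.7, 34.0, 29.1, 48.2 and 138. In the separate tables Ndufa3 was at 21.7 FPKM in MVH IP against 12.3 in lysate, a log2 ratio of 0.77 and thus no call. Cox7b, at 39.8 FPKM against 1.52, and Ndufaf4, at 14.03 against 1.07, had the highest ratios, 4.02 and 2.86 on the log2 scale, from levels near 1 FPKM. The separate MVH IP table has Cox7b at 8.17 FPKM and Ndufaf4 at 11.7, and neither is listed in the separate lysate table. Among the core genes of complex I, Ndufs3 at 124 FPKM against 30.1 and Ndufs8 at 19.9 against 5.60 were higher.

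Fewer genes lay below lysate in the IP. Sdha, at 19.1 FPKM against 54.7, was the 1 lower gene not listed at 0. Ndufa4 was listed at 0 against 12.6 FPKM, Uqcr11 at 0 against 9.07, Cox8b at 0 against 3.75 and Cox4i2 at 0 against 2.32. A value of exactly 0 can be a failed estimate, so no fold is given for these. Ndufv1 at 19.7 FPKM against 36.0, Ndufs6 at 48.5 against 80.9 and Cox5a at 77.4 against 125 were under lysate by less than 2-fold. In the separate tables Sdha at 122 FPKM against 22.6, Ndufv1 at 47.8 against 13.8 and Cox5a at 55.4 against 37.7 were above lysate. Ndufs6 was at 31.4 against 33.3 there.

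The F1 genes of ATP synthase were below the shift of all genes in the joint table. None of the 5 F1 genes was called, with log2 ratios from -0.45 for Atp5b to 0.41 for Atp5a1 and a median of -0.20. Of 10 genes of Fo and the stalks 6 were higher, with a median of 1.05, close to all genes at 47.3% higher and a median of 0.92. Centred, 0 of these 10 were higher and 2 lower, against 0 and 3 of the F1 genes. Atp5k was at 633 FPKM against 274, Atp5l at 96.5 against 32.9, Atp5j, coupling factor 6, at 59.0 against 19.9 and Atp5f1 at 46.9 against 21.7. In the separate tables Atp5k was at 165 FPKM in MVH IP against 152 in lysate and Atp5l at 40.3 against 28.8, so neither was called there. Atp5j and Atp5f1 are not listed in the separate MVH IP table. Atp5o at 83.1 against 105 and Atp5j2 at 35.2 against 39.7 stayed with F1. Atp5f1, Atp5j and Atp5b each share a locus with another gene. By complex, the median log2 ratio was 0.59 for complex I, 0.95 for complex II, 0.70 for complex III, 0.52 for complex IV and 0.84 for complex V, so complex II alone lay above the median of all genes. The complex V value includes Atp5s at 1.63 and Atp5sl at 1.75, which are not subunits. Over its 15 subunits alone the median was 0.41.

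The separate gene tables, which the authors scaled apart and which start at 5 FPKM, gave other ratios for the same samples. In them 62 members are listed for both MVH IP and lysate, and 61 of these also passed the filter in the joint table. Over the 61, 44 were higher and 1 lower in the separate tables, against 78.9% and 0.473% of all genes there, while the joint table had 19 and 1. Centred on the separate tables' median, 6 were higher and 18 lower, against 23.4% and 21.8%. Their median was 1.57 against 2.03 for all genes in the separate tables, and 0.61 against 0.92 in the joint table, so in both they stood below genes at large. Of the 61, 10 had opposite signs. Sdha was among them, with separate values of 122 FPKM for MVH IP and 22.6 for lysate, a log2 ratio of 2.39 against -1.47. Cox4i1 was at 518 and 116 FPKM there and at 88.6 and 64.4 in the joint table. Between the 2 sources, 8 of 68 members in MVH IP and 2 of 69 in lysate differed by 4-fold or more from the median difference of all genes. Ndufa1 was at 9.14 FPKM in both separate tables, so its higher call was absent there.

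Some genes held their place in both sources. After centring, Ndufc1, Ndufs3 and Uqcrfs1 were higher by 2-fold or more in both, with separate values of 306 against 12.5 FPKM, 173 against 14.1 and 177 against 13.0. Atp5e, Atp5j2, Cox5a and Ndufs6 were among the genes lower in both after centring. Before centring, Atp5e and Cox5a had opposite signs, -0.34 and -0.68 in the joint table and 0.65 and 0.54 in the separate tables. Within ATP synthase the separate tables gave a median log2 ratio of 1.11 over 3 F1 genes and 0.90 over 6 of Fo and the stalks, the reverse order of the joint table. Complex II again stood highest, at 2.35 over 4 genes, and complex V lowest, at 1.22 over 10.

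**Figure D4:**
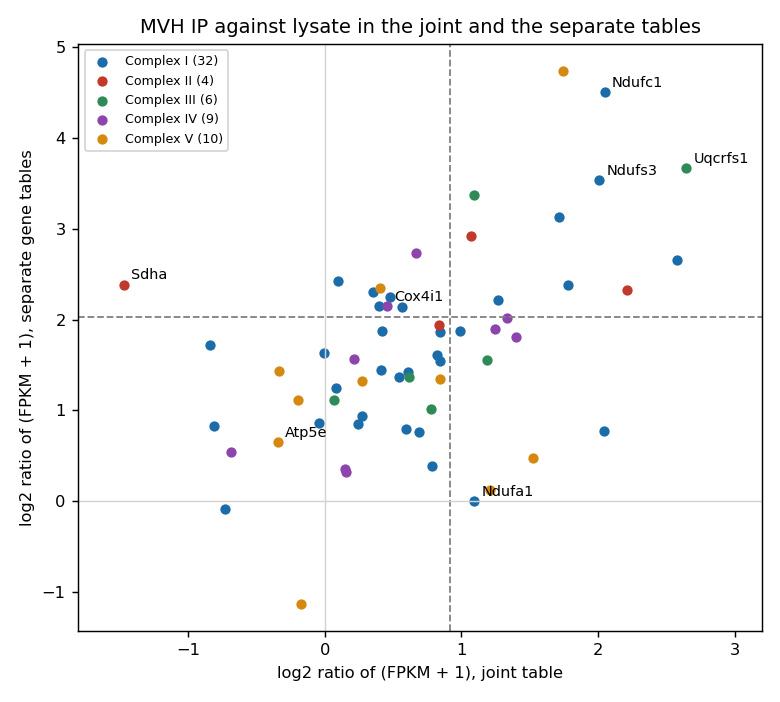
Log2 ratio of MVH IP to lysate of (FPKM + 1) for the 61 genes measured in both sources, with the joint table on the horizontal axis and the separate gene tables on the vertical axis; dashed lines are the medians of all genes. Sdha lies far left at -1.47 and high at 2.39, and Ndufc1, Ndufs3 and Uqcrfs1 lie at the upper right.

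Against pellet2, the material the protocol gives as input of the IP, many of these genes had higher FPKM in MVH IP. The same pellet2 value was used against lysate, where these genes stood below all genes, so the pellet2 results are not independent. In MVH IP against lysate their median was below that of all genes. Of 82 past the filter 47 were higher (57.3%) and 1 lower, against 39.9% and 5.78% of all 13808 genes tested, and the median log2 ratio was 1.16 against 0.79. Centred, 21 were higher and 4 lower, against 14.2% and 13.7%. The 1 lower gene, Uqcr11, is listed at 0 in MVH IP. The medians were 1.69 for complex III, 1.47 for complex II, 1.30 for complex IV, 1.16 for complex I and 0.93 for complex V, all above that of all genes. Among the high ratios were genes at or near 0 in pellet2: Uqcr10 at 57.4 FPKM against 0, Cox7b at 39.8 against 0, Ndufa1 at 41.2 against 1.45 and Ndufs7 at 5.69 against 0. Ndufaf4 at 14.03 against 0.246 FPKM is the 1 member of 76 called in the authors' deposited table, with q = 0.0355, against 0.89% higher and 0.142% lower of all genes. Of the F1 genes 3 were higher, Atp5a1, Atp5d and Atp5e, the last at 106 FPKM against 19.8. Ndufv1 at 19.7 against 27.6, Sdha at 19.1 against 23.4 and Cox5a at 77.4 against 82.6 were under pellet2 by less than 2-fold. Centred, Ndufv1 at -1.26 and Sdha at -1.07 were among the 4 lower genes. The separate tables hold no pellet2, but their MVH IP values for these genes were higher than in the joint table, 47.8 FPKM for Ndufv1 and 122 for Sdha. The summed Sertoli markers were 271 FPKM against 24.2 and the median round spermatid marker 564 against 224, and their part in the result was not tested. Genes under 1000 bases had a higher median ratio than longer ones both among members, 1.43 against 0.91, and among all genes, 1.22 against 0.76.

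Sorted round spermatids can be set against lysate only in the separate tables. Of 63 genes listed in both 9 were higher and 4 lower, against 22.6% higher and 3.61% lower of 4105 genes, with a median log2 ratio of -0.02 against 0.31. Centred, 5 were higher and 10 lower, against 15.2% and 8.04%. With lysate taken from the joint table the counts turn to 4 higher and 36 lower of 65, so they depend on the scaling. Within the separate tables the complexes ranged from -0.46 for complex II (3 genes) and -0.37 for complex V (12) to 0.02 for complex I (33) and 0.20 for complex III (7), with -0.20 for complex IV (8). Atp5j was at 85.4 FPKM in spermatids and 7.60 in lysate, Ndufv2 at 161 and 53.9, and Sdha at 62.0 and 22.6. Atp5g3 was at 8.17 and 32.7 FPKM, Atp5l at 8.21 and 28.8, and Atp5e at 20.03 and 50.7.

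MVH IP against round spermatids repeated the upward shift of the separate MVH IP table. Of 60 genes listed in both 44 were higher and 0 lower, against 75.4% and 0.545% of 3855 genes, and centred 7 were higher and 14 lower, against 20.3% and 21.5%. The median was 1.47 against 1.85. Atp5sl at 169 FPKM against 5.89, Uqcrfs1 at 177 against 12.8 and Sdhc at 94.2 against 6.73 had the highest ratios. Atp5j2 at 7.18 against 8.79 and Ndufa6 at 31.8 against 36.8 had the lowest. This comparison and those of MVH IP with lysate share the MVH IP value.

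In the hetMIWI library only 32 members are listed, and 28 are also listed in round spermatids. Of these 11 were higher and 0 lower, against 12.7% and 10.5% of 2536 genes, and centred 5 were higher and 0 lower, against 3.59% and 18.3%. The median log2 ratio was 0.94 against 0.43. Ndufb4 was at 38.7 FPKM against 6.13, Atp5k at 365 against 76.8, Cox6c at 231 against 61.2 and Uqcrh at 176 against 72.2. Ndufa5 at 95.2 against 99.6, Ndufv1 at 13.8 against 13.4 and Ndufs7 at 6.00 against 5.59 differed little. Another 37 members are listed in round spermatids alone. No share over all genes stands beside this count or the next, so neither can be read as particular to these genes. Among 18 members at 50 FPKM or more in round spermatids 7 are not listed in hetMIWI (Atp5j, Atp5o, Cox5b, Ndufa12, Ndufv2, Sdha and Uqcrq), so the 28 are no full account of the set. What the label stands for and the library itself cannot be told apart with 1 library and the round spermatid value includes a library of RNA above 500 bp. Among all genes in this comparison those under 1000 bases had a median of 0.76 and longer ones of 0.37.

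Of the 87 genes 10 share their locus in the joint table with another gene: Atp5b with Mir677, Atp5f1 with Wdr77, Atp5j with Gabpa and LOC654426, Cox6a2 with Itgad, Ndufa13 with Tssk6, Ndufa2 with Tmco6, Ndufa4l2 with Shmt2, Ndufb11 with Rbm10, Ndufs5 with BC002163 and Uqcrc2 with Pdzd9. Whether their exons overlap was not examined, and with no strand stated it is unknown how reads were divided between them. Of these 10 genes 8 are not listed in the separate MVH IP table, against 11 of the other 77. Atp5b, Atp5j, Ndufa13 and Ndufa2 are among the 8 although they were at 151, 59.0, 114 and 325 FPKM in MVH IP in the joint table. Without the 10, the counts for MVH IP against lysate, MVH IP against pellet2 and pellet1 against lysate stayed within 1.5 times those given.

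Other genes of the pathway were read from lists of their own, chosen by known function. Of 27 further assembly factors in the table, such as Atpaf2 for F1 and Ecsit for complex I, 26 passed the filter in pellet1, of which 7 were higher and 3 lower, against 16.8% and 9.41% of all genes, and the median log2 ratio was 0.29 against 0.07. In MVH IP 15 of 25 were higher and 1 lower, against 47.3% and 7.53%, and the median was 1.21 against 0.92. Atpaf2 was at 24.2, 26.5, 94.2, 68.4 and 141 FPKM, while the F1 genes it helps to assemble were under lysate in both pellets. Of 11 genes of coenzyme Q synthesis 3 were higher in pellet1 and 5 in MVH IP, with medians of 0.31 and 0.96, and of 13 regulators of mitochondrial biogenesis 2 and 6, with medians of 0.26 and 0.93. No gene of these lists was lower, and their MVH IP counts and medians were near those of all genes (47.3% higher, median 0.92). Among the genes of electron carriers 1 was higher and 2 lower of 7 in pellet1, with a median of -0.23, and 0 and 3 of 8 in pellet2, with a median of -0.36. This list includes Cyc1, cytochrome c1, which is a subunit of complex III. It was at 8.59, 6.58, 4.36, 2.55 and 21.5 FPKM. Etfb, which passes electrons from fatty acid oxidation, was at 55.6, 48.8, 26.1, 6.88 and 26.7 FPKM. Of the cytochrome c genes, the testis form Cyct was at 45.3, 35.1, 38.4, 37.5 and 121 FPKM and the somatic Cycs at 1.85, 1.59, 2.17, 1.77 and 5.04. The testis isoforms of complex IV differed from each other, with Cox8c at 624 FPKM in pellet1 and 1809 in MVH IP against 260 in lysate and Cox6b2 at 50.8 and 96.7 against 97.1.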

How the data were processed

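Per the submitters' processing notes, reads were processed with TopHat and Cuffdiff on mm9; versions, read counts and strand were not stated. The authors' deposited joint table holds FPKM values for 5 conditions in 10 pairs with a q-value per pair, as deposited by the authors from Cuffdiff. The 4 separate gene tables hold FPKM values deposited by the authors for lysate, MVH IP, round spermatids and hetMIWI; each was scaled apart and starts at 5 FPKM. The MVH IP value was matched to the group of 3 libraries by the labels, which do not say how they were combined.

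From these, log2 ratios with a pseudocount of 1 FPKM were computed for symbols that averaged 1 FPKM or more over both conditions, and 2-fold or more was called (Python 3.11.15, pandas 2.3.3, numpy 2.4.6, scipy 1.17.1). The call was tested on simulated data, with changes above the threshold put into the higher lysate values only, so low and zero values were not covered. Where pairs listed different values for a condition the highest was used. The rule for named genes took the 6 highest and 6 lowest ratios per comparison, genes with q under 0.05, genes listed at 0 in 1 condition, and subunits with redox or catalytic roles and isoform groups whatever their values; other genes named, such as the leaders in level, were chosen after their values were seen. Transcript lengths came from GENCODE M21, and promoter windows from RefSeq on GRCm38.p6. The genes and lists were chosen with earlier results of these data known. Alternatives changed the pseudocount, the filter, the centring, the genes listed at 0, the source table and the membership. Tables of transposons, piRNA clusters and other RNA were not used here. With 1 value per condition there is no replicate error, and unknown depth gives no counting error. The values of 1 gene are not reported here.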

Additional observations from a re-analysis of the deposited data

How the results depend on the processing

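Of 110 counts of members higher or lower, 83 stayed within 1.5 times under the alternatives tried and 27 did not; by complex, 467 of 550 did. Centring on the median of all genes gave 3 higher in pellet1 and 1 in pellet2, 8 higher and 16 lower in MVH IP against lysate, 21 and 4 against pellet2, 5 higher and 10 lower in round spermatids, 7 and 14 in MVH IP against round spermatids, and 5 higher in hetMIWI. With a pseudocount of 0.1 FPKM, 5 were lower in supernatant, 9 higher in pellet1 and 4 higher in pellet2. With structural subunits alone, 3 were higher in pellet1 and 1 in pellet2. Without members that share a locus, an alternative chosen after seeing the data, 1 was higher in supernatant and 1 in pellet2. The lower genes in MVH IP against lysate were 2 with a mean of at least 5 FPKM, 1 without genes listed at 0 and 1 in the separate tables; against pellet2 they were 2 with no filter, 0 with a mean of at least 5 FPKM and 0 without genes listed at 0. With lysate from the joint table, 4 were higher and 36 lower in round spermatids, and with MVH IP from it 4 were lower against round spermatids.

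Of 747 values of named genes, 703 were still called, 33 were not and 11 changed sign. In the separate tables MVH IP against lysate was -0.0013 for Ndufa1 and 2.39 for Sdha on the log2 scale. Against the joint lysate, Cox7c in round spermatids was -0.0513. For MVH IP against round spermatids, centring gave -0.56 for Atp5c1, -0.77 for Cox4i1, -0.12 for Cox7a2, -0.38 for Ndufa4l2, -0.24 for Ndufs1, -0.70 for Ndufs7 and -0.0925 for Ndufv1, and the joint MVH IP gave -1.45 for Cox4i1. Centring and subsets differ by construction; for the source tables the cause was not tested. No paired analysis was possible because each condition has 1 deposited value, with replicates combined before deposit. The low and zero values of short transcripts limit what these tables can show, and with no depth given no detection limit can be stated.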
